A study of Sus scrofa with 6 samples.

Results

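The cytosolic heat shock proteins are the chaperones that keep other proteins folded in the cell fluid, and 10 of their genes were read in back muscle of young pigs: the small heat shock proteins HSPB1, HSPB6, HSPB8 and CRYAB, the HSP70 system of HSPA8, HSPH1, DNAJA1 and DNAJB1, and the HSP90 genes HSP90AA1 and HSP90AB1. They were found by gene symbol, as given in the array file or reached through its Entrez ID. Where a placeholder symbol had no such link, the protein named in its title was used. This gave 10 of 6266 named genes and 17 of 23999 probe sets that were not controls, a probe set being the group of short probes that reads out a transcript. Of the 17, 5 carried the member's symbol and 7 had a placeholder symbol, tied to a member by its Entrez ID or its title. The other 5 had an older symbol (Hsp27, HSP90 or HSPCB) that its Entrez ID ties to HSPB1, HSP90AA1 or HSP90AB1. A probe set was tested if it was called Present, that is above its mismatch background, on at least 3 of the 6 arrays, and 16 of the 17 were.

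Total RNA came from the longissimus dorsi, the long muscle of the back, of male piglets aged 25 days. The groups were 3 Yorkshire piglets (replicates 1, 2 and 3), a lean commercial breed, and 3 Shaziling piglets (replicates 4, 5 and 6), an indigenous Chinese breed, with 1 Affymetrix porcine array per animal and no treatment. Per the labels' protocols the piglets of a breed were full siblings and each breed had a farm of its own, so breed, litter and farm cannot be told apart, and p-values measure the spread between siblings.

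Small heat shock proteins hold unfolding proteins without using ATP and keep them from clumping. In muscle they sit largely on the sarcomere, the contractile unit, and its Z-disc. HSP70 binds and releases exposed stretches of a client with ATP. J-domain proteins such as DNAJA1 and DNAJB1 bring clients to HSP70 and start ATP use, and HSPH1, of the HSP110 group, lets HSP70 release its nucleotide and works with it to undo aggregates. HSP90 takes over late-folding clients such as kinases and steroid receptors. Many of these genes are known targets of the transcription factor HSF1, which is freed when unfolded protein builds up.

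Between 56.3% and 60.6% of probe sets were Present on each, and correlations between arrays over tested probe sets lay from 0.924 to 0.962. Of 10 skeletal muscle markers 8 were on the array under a name, and all 8 were Present on all 6 arrays. The difference between the 3' and 5' probe sets of actin, a measure of RNA length, was 5.11, 4.82 and 4.97 in Yorkshire and 4.16, 4.23 and 4.98 in Shaziling (log2). That of GAPDH was 0.04, 0.12 and 0.05 in Yorkshire and 0.21, 0.07 and -0.04 in Shaziling. For both, the breeds overlapped. The actin difference was large, 4.16 or more on every array, while that of GAPDH was at most 0.21. These measures disagree, so they do not settle whether the RNA was intact. A change in the signal of whole muscle cannot tell more cells of a type from more RNA per cell. Levels of different probe sets are not compared, since each binds with its own strength, and only differences between animals are given.

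None of the 16 tested probe sets passed limma's adjusted p of 0.05 over all 14413 tested probe sets, a threshold that 0.215% of all tested probe sets passed, 0.0971% higher and 0.118% lower in Shaziling. At limma's unadjusted p under 0.05 there were 5, all higher in Shaziling, from HSPH1, DNAJA1 (2 probe sets), HSPB1 and CRYAB. Of all 14413 tested probe sets 4.38% were higher in Shaziling at that p, and 1499 differed in either direction. In 3 of the 16, from HSPH1 and DNAJA1, all Shaziling signals lay above all Yorkshire signals, against 7.42% of all tested probe sets, and in 0 of the 16 they lay below, against 8.89%. With 1 probe set per gene, the brightest tested, the median log2 difference, the mean log2 signal of Shaziling minus that of Yorkshire, was 0.81 for the 4 small heat shock proteins, 0.59 for the 4 genes of the HSP70 system and 0.02 for the 2 HSP90 genes. Over all tested probe sets it was -0.04, and 46.2% of them were positive. Without Yorkshire replicate 2 the median was 0.38 for the small heat shock proteins and 0.46 for the HSP70 system, so their order reversed. Of the 16 tested member probe sets 9 were positive (56.2%), with a median of 0.25, and of the 10 genes 7 were.

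**Figure D1:**
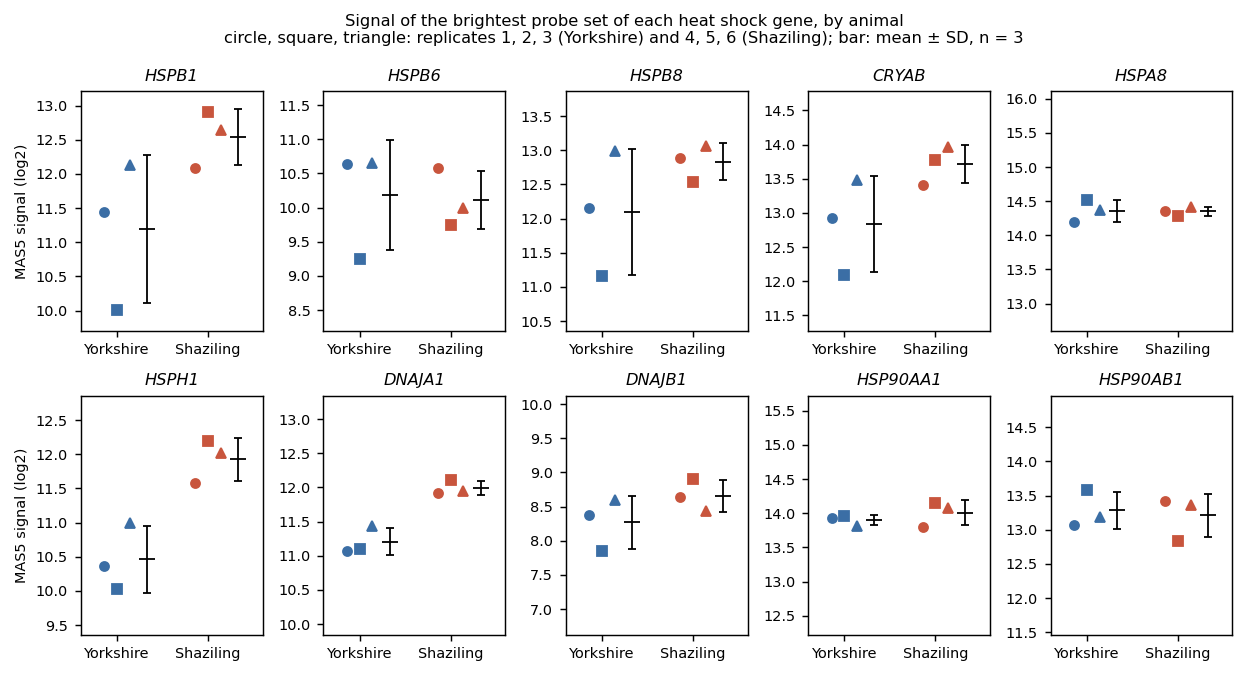
Each panel plots the log2 MAS5 signal of a gene's brightest probe set, on axes of equal span, for the 3 Yorkshire (blue) and 3 Shaziling (red) piglets, with the mean and SD as bars. HSPH1 and DNAJA1 have no overlap between breeds, Yorkshire replicate 2 (blue square) is lowest for all 4 small heat shock proteins, and HSPA8 and HSP90AA1 are nearly flat.

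Of the small heat shock proteins, HSPB1, known as HSP27, an actin-binding chaperone that responds to stress, spread most. Its log2 signal was 11.45, 10.01 and 12.13 in Yorkshire replicates 1, 2 and 3, and 12.09, 12.90 and 12.64 in Shaziling replicates 4, 5 and 6. Yorkshire replicate 2 stood far below every other animal, and Yorkshire replicate 3 and Shaziling replicate 4 lay side by side, so the breeds overlapped narrowly. Shaziling was 2.54-fold higher on average (log2 difference 1.35, SE 0.46, 95% interval 0.31 to 2.38, limma adjusted p = 0.344). The range over the 6 animals was 2.89, and 0.538% of 743 probe sets within 0.5 of its mean signal and Present on all arrays had a range as wide. Without Yorkshire replicate 2 the log2 difference was 0.75 (limma adjusted p = 0.383). The HSPB1 probe set lay on chromosome 3 from 8503238 to 8504685, with an identity of 73.2% in the file's alignment, so its target is less certain.

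CRYAB, alpha-B crystallin, which binds desmin and titin at the Z-disc, had the same order among the lower 4 animals. Its signal was 12.92, 12.09 and 13.49 in Yorkshire and 13.41, 13.77 and 13.96 in Shaziling (log2). Only Yorkshire replicate 3 reached the Shaziling range. The mean went from 12.83 ± 0.70 to 13.71 ± 0.28 (SD, n = 3), with a log2 difference of 0.88 (SE 0.31, limma adjusted p = 0.355). Without Yorkshire replicate 2 it was 0.51 (limma adjusted p = 0.432). A second, dimmer CRYAB probe set did not repeat this order. It read 7.96, 7.46 and 7.54 in Yorkshire against 7.17, 9.91 and 8.73 in Shaziling, with Shaziling replicate 4 lowest and replicate 5 highest. Its log2 difference was 0.95 (SE 0.57, limma adjusted p = 0.605), and it was 0.30 without Shaziling replicate 5, 1.67 without replicate 4 and 0.25 with each array's Present percentage as a covariate. The file places it on chromosome 9 from 38492406 to 38492697, inside the span of the first from 38490732 to 38494293. The array's own cluster title instead likens it to HSPB2, the neighbouring gene, so which transcript it reads is uncertain. The probe set titled for HSPB2 had a log2 difference of 0.04 (SE 0.31, limma adjusted p = 0.974).

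HSPB8, a small heat shock protein that works with BAG3 to clear damaged sarcomere proteins, varied within Yorkshire more than between breeds. Its signal was 12.15, 11.16 and 12.99 in Yorkshire and 12.89, 12.54 and 13.07 in Shaziling (log2). The log2 difference was 0.73 (SE 0.39, limma adjusted p = 0.559), and it was 0.26 without Yorkshire replicate 2 and 1.18 without replicate 3. HSPB6, known as HSP20, a phosphoprotein of muscle, went another way. Its brighter probe set read 10.64, 9.25 and 10.65 in Yorkshire and 10.57, 9.75 and 10.001 in Shaziling. Yorkshire replicate 2 was again lowest, but Shaziling replicates 5 and 6, high for HSPB1 and CRYAB, lay below Yorkshire replicates 1 and 3. The log2 difference was -0.07 (SE 0.39, limma adjusted p = 0.965). The dimmer HSPB6 probe set, with Present calls in 2 Yorkshire piglets and 1 Shaziling piglet, had -0.15 (SE 0.42). The file places HSPB6 on chromosome 6 from 30177110 to 30177445 and from 30178194 to 30179669, and HSPB8 on chromosome 14 from 33648217 to 33649085.

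Yorkshire replicate 2 was thus lowest of the 6 animals for all 4 small heat shock genes, with deviations from the mean of the 6 arrays of -1.86 for HSPB1, -1.31 for HSPB8, -1.18 for CRYAB and -0.89 for HSPB6 (log2). It was lowest for 6 of the 10 genes, the others being HSPH1 and DNAJB1, and for 6 of 16 tested probe sets, where it was lowest for 17.8% of all tested probe sets. The other animals were lowest for 11.4% (Yorkshire replicate 1), 19.1% (replicate 3), 14.3% (Shaziling replicate 4), 22.4% (replicate 5) and 15.1% (replicate 6) of all tested probe sets. Yorkshire replicate 2 was highest for HSPA8 and HSP90AB1, 2 of the 10 genes, and for 23.7% of all tested probe sets. The mean deviation of the 8 skeletal muscle markers in that animal was -0.30, against -0.06 to 0.16 in the other animals. Smooth muscle markers (3 of 4 on the array) had -0.93 there, against -0.29 to 0.63 elsewhere, and endothelial markers (5 of 5) -0.59, against -0.21 to 0.62. It was also lowest for leukocyte markers (5 of 6) at -0.47, against -0.21 to 0.57, and for adipocyte markers (3 of 5) at -0.35, against -0.24 to 0.49. The summed linear signal of the smooth muscle markers ran from 3225 to 9838 in Yorkshire and from 4335 to 9167 in Shaziling, and that of the endothelial markers from 3740 to 7565 and from 3928 to 6906. For the adipocyte markers it ran from 2451 to 4341 and from 4314 to 4900. None of these markers on the array was Absent in every animal. However, only 3 of the 5 endothelial, 2 of the 5 leukocyte and 2 of the 3 adipocyte markers were Present on all 6 arrays. Not every list was lowest in Yorkshire replicate 2. Fibroblast markers (4 of 5) had -0.21 there and were lowest in Shaziling replicate 5, at -0.42. Schwann cell and nerve markers (2 of 4, with SOX10 Absent on all arrays) had 0.20 in Yorkshire replicate 2. The part of these differences in the low small heat shock signals was not tested.

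**Figure D2:**
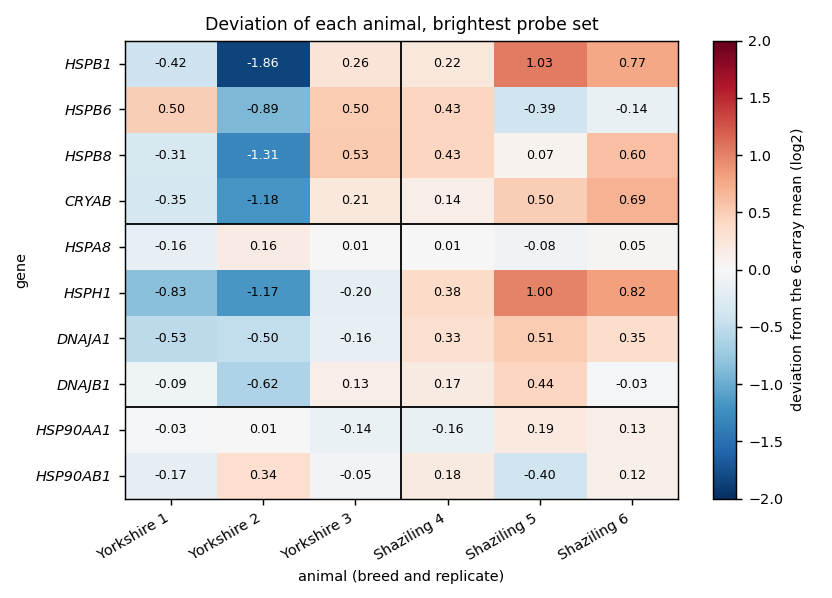
Rows are the 10 genes (brightest probe set), columns the 6 animals, and each cell gives the deviation from the gene's mean over the 6 arrays in log2 units. The small heat shock block is darkest blue in Yorkshire replicate 2, while HSPH1 and DNAJA1 change sign between the breeds.

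In the HSP70 system the clearest separation by breed was that of HSPH1, the HSP110 partner of HSP70. Its log2 signal was 10.36, 10.03 and 10.99 in Yorkshire and 11.58, 12.19 and 12.01 in Shaziling. Every Shaziling animal lay above every Yorkshire animal, with a gap of 0.58 between the nearest. Shaziling averaged 11.93 ± 0.32 and Yorkshire 10.46 ± 0.49 (SD, n = 3), so Shaziling was 2.76-fold higher (log2 difference 1.47, SE 0.27, 95% interval 0.85 to 2.08). Its limma adjusted p was 0.0962 (unadjusted p = 0.0004), which misses the threshold, over a range of 0.041 to 0.393 when 1 animal was left out. It passed only without Yorkshire replicate 3, the highest of its breed, with a log2 difference of 1.73, and also under array weights (limma adjusted p = 0.0089). The HSPH1 probe set lay on chromosome 11 from 7124695 to 7126998, in the file's coordinates, with an identity of 98.4%.

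DNAJA1, a J-domain protein that hands clients to HSP70, had a pair of probe sets placed on the same span of chromosome 10, from 31955124 to 31967885, and both separated the breeds. The brighter one read 11.07, 11.10 and 11.43 in Yorkshire against 11.92, 12.11 and 11.94 in Shaziling. The other read 10.24, 10.39 and 10.48 against 10.87, 11.54 and 11.30. Both ordered the 6 animals in the same way. The log2 differences were 0.79 (SE 0.18, limma adjusted p = 0.147) and 0.86 (SE 0.22, limma adjusted p = 0.209), or 1.73-fold and 1.82-fold. These probe sets read the same transcript and are not separate evidence. Under array weights both passed (limma adjusted p = 0.0229 and 0.0251), in a fit that called 364 probe sets in all against 31. Some measures of other cells and of RNA length are given beside these differences. The summed linear signal of the Schwann cell and nerve markers (2 of 4 on the array, with SOX10 Absent on all arrays) ran from 173 to 298 in Yorkshire and from 329 to 436 in Shaziling, without overlap. That of the leukocyte markers (5 of 6, with 1 past the threshold) ran from 670 to 1355 and from 1053 to 1627, so the breeds overlapped. The actin difference was lowest in Shaziling replicates 4 and 5, but that of replicate 6 (4.98) lay among the Yorkshire values. Their part in the HSPH1 and DNAJA1 differences was not tested.

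DNAJB1, known as HSP40, the stress-inducible J-domain partner of HSP70, overlapped between breeds. It read 8.37, 7.85 and 8.60 in Yorkshire and 8.64, 8.90 and 8.43 in Shaziling. The probe set lay on chromosome 2 from 57314091 to 57315288. The log2 difference was 0.39 (SE 0.27, 95% interval -0.21 to 0.99, limma adjusted p = 0.665), and it was 0.17 without Yorkshire replicate 2. HSPA8, the constitutive HSP70 of the cell, was the steadiest member. It read 14.20, 14.51 and 14.37 in Yorkshire and 14.36, 14.28 and 14.41 in Shaziling, a range of 0.32 over all animals. Of 191 probe sets within 0.5 of its mean, 77.5% had a range as wide, so bright probe sets as a whole varied little. Its log2 difference was -0.01 (SE 0.12, 95% interval -0.29 to 0.27, limma adjusted p = 0.983), and the interval spans ratios of 0.817 to 1.21. A second HSPA8 probe set was Absent on all arrays and was not tested. The tested one lay on chromosome 9 from 48524872 to 48534219 and the Absent one elsewhere on that chromosome, with an identity of 35.1%. Both HSPA8 probe sets rest on a title alone, as the Entrez ID in the file is not in the current gene table.

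The HSP90 genes differed little between breeds. For HSP90AA1, the inducible HSP90, the brightest probe set read 13.93, 13.96 and 13.82 in Yorkshire and 13.80, 14.15 and 14.08 in Shaziling. The log2 difference was 0.11 (SE 0.14, 95% interval -0.20 to 0.41, limma adjusted p = 0.823). The other HSP90AA1 probe sets had -0.06 (SE 0.25) and -0.24 (SE 0.24), and Shaziling replicate 4 was lowest in all 3. For the constitutive HSP90AB1 the bright probe set read 13.07, 13.58 and 13.19 in Yorkshire and 13.42, 12.84 and 13.36 in Shaziling, with replicate 5 lowest and Yorkshire replicate 2 highest. Its log2 difference was -0.07 (SE 0.20, 95% interval -0.52 to 0.38, limma adjusted p = 0.933). The dim HSP90AB1 probe set, with as few Present calls as the dimmer HSPB6 one, had -0.40 (SE 0.52), and the file aligns it to the strand opposite to the bright one. The third HSP90AA1 probe set likewise lies on the strand opposite to the other two. HSP90AB1 lies on chromosome 7 from 45765319 to 45771909 and HSP90AA1 from 131807360 to 131809817, where the bright HSP90AA1 probe sets align with an identity of only 48.5%, so their target is less certain.

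**Figure D3:**
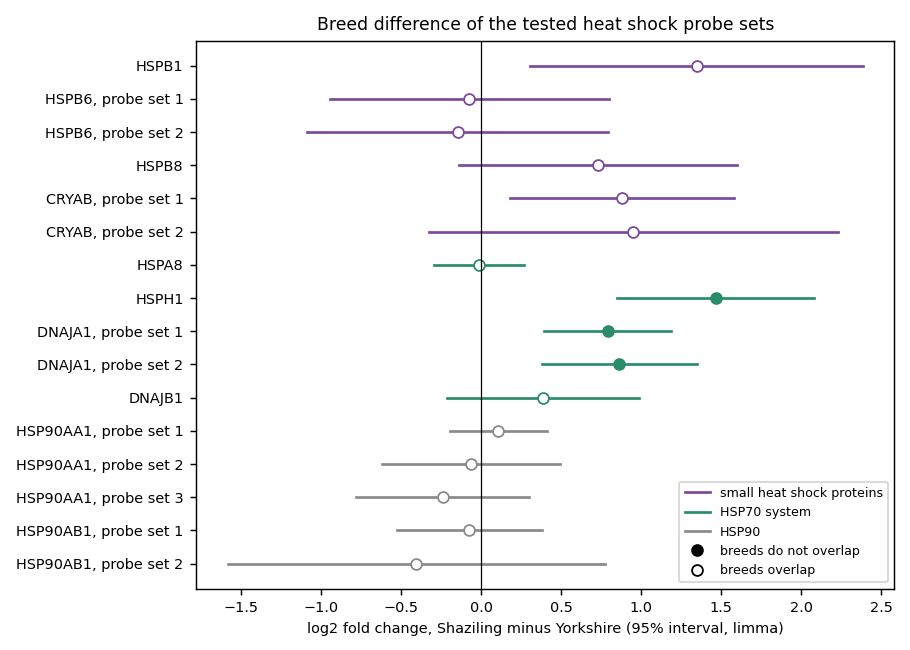
Points give the log2 fold change, Shaziling minus Yorkshire, of each tested probe set, and lines its 95% interval from limma, with probe set 1 the brightest of a gene. Filled points, for HSPH1 and DNAJA1, mark probe sets whose breeds do not overlap, and all 5 HSP90 intervals include 0.

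Ratios within an array do not depend on how arrays were scaled to one another. Centred on the mean of the 6 arrays, HSPH1 relative to HSPA8 was -0.67, -1.33 and -0.21 in Yorkshire and 0.38, 1.07 and 0.76 in Shaziling (log2). The nearest animals of the breeds were 0.59 apart, against 0.58 for HSPH1 alone. HSPA8 had a range of only 0.32, so ratios to it largely repeat the signal of the other gene. DNAJA1 relative to HSPA8 was also separated, from -0.65 to -0.18 in Yorkshire and from 0.29 to 0.59 in Shaziling. HSPB1, CRYAB and HSPB8 relative to HSPA8 were not separated: Yorkshire replicate 3 reached 0.24, 0.20 and 0.51, above the lowest Shaziling animal in each case. Within the small heat shock proteins, HSPB1 relative to HSPB6 was -0.92, -0.97 and -0.24 in Yorkshire and -0.21, 1.43 and 0.91 in Shaziling. It was well below its mean in Yorkshire replicates 1 and 2 and well above it in Shaziling replicates 5 and 6, with the nearest animals of the breeds side by side. The pairs were chosen after their values were seen and carry no test.

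**Figure D4:**
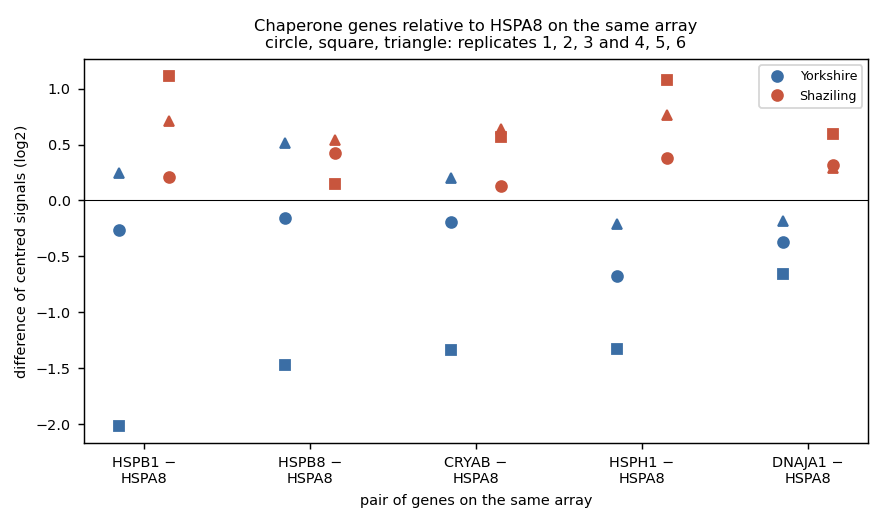
Each column gives, for the 6 animals, the centred log2 signal of a gene minus that of HSPA8 on the same array, with Yorkshire in blue and Shaziling in red. The breeds are apart for HSPH1 and DNAJA1, and Yorkshire replicate 3 (blue triangle) lies among the Shaziling animals for HSPB1, HSPB8 and CRYAB.

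Likeness of pattern was measured as the root mean square difference between centred log2 signals over the 6 arrays. Among the members, the closest to CRYAB was HSPB8 (0.26), the closest to HSPB1 was CRYAB (0.36), and the closest to HSPH1 was also CRYAB (0.35). HSPA8 and HSP90AA1 were closest to each other (0.17), as flat patterns are. Among 4832 named probe sets Present on all arrays, the nearest to HSPB1 was DNAJA4, a further J-domain partner of HSP70 (0.27), then NANOS1, an RNA-binding protein (0.30), and CRYAB. DNAJA4 read 10.75, 9.35 and 11.81 in Yorkshire and 11.03, 11.74 and 11.86 in Shaziling. Like HSPB1 it was lowest in Yorkshire replicate 2, with a range of 2.52. Nearest to HSPH1 were RGS4, a regulator of G protein signalling (0.27), C4A, a complement component (0.27), and AP1S2, an adaptor subunit of vesicle coats (0.31). Nothing is drawn from these matches about function.

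Of the other cytosolic chaperones and their helpers, 32 listed genes were tested, and 0 passed in either direction in limma over all probe sets. In either direction, 2 of the 32 had a limma unadjusted p under 0.05, against 1499 of all 14413 tested probe sets. The median log2 difference of the 32 was 0.04, and 18 lay above 0 and 14 below. Among the other HSP70, HSP110 and J-domain proteins, 7 of 10 were positive, with a median of 0.19. The leading one was HSP70.2, the stress-inducible HSP70 listed as HSPA1A or HSPA1B, whose near-identical copies an array cannot separate. Its brightest probe set read 13.23, 12.55 and 13.07 in Yorkshire and 13.36, 14.49 and 13.98 in Shaziling. In it the breeds did not overlap, though Shaziling replicate 4 lay close to Yorkshire. The log2 difference was 0.996 (SE 0.28, limma adjusted p = 0.277), and the other 2 probe sets had 0.94 (SE 0.32), with the breeds overlapping, and 1.13 (SE 0.34), with no overlap. HSPA4, of the HSP110 group like HSPH1, had 0.42 (SE 0.20, limma adjusted p = 0.517) in its brightest probe set, with no overlap. Its other probe sets had 0.49 and 0.35, with the breeds overlapping in both. DNAJA4 had 0.91 (SE 0.52, limma adjusted p = 0.588).

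Among the cofactors of HSP70 and HSP90, 6 of 12 genes had a positive difference and 6 a negative one, the median being -0.002. CDC37L1, a relative of the HSP90 co-chaperone of kinases, had 0.98 (SE 0.27, limma adjusted p = 0.272) in its brightest probe set, where the breeds did not overlap, and 0.87 (SE 0.36) in another, where they did. PTGES3, the p23 co-chaperone of HSP90, had 0.86 (SE 0.21, limma adjusted p = 0.185) in one probe set and 0.19 (SE 0.17) in its brighter one, with no overlap in either. BAG3, the partner of HSPB8 in muscle, read 12.34, 11.90 and 12.62 in Yorkshire and 12.26, 13.20 and 13.06 in Shaziling, with a log2 difference of 0.55 (SE 0.27, limma adjusted p = 0.531). Of the 2 tested further small heat shock genes, HSPB3 of muscle had 0.22 (SE 0.28) and HSPB2 is given above. The subunits of the chaperonin TRiC and of prefoldin, which fold actin and tubulin, were split 3 positive to 5 negative with a median of -0.09. Their leading members were PFDN4 with 0.31 (SE 0.16), VBP1 with -0.24 (SE 0.16) and CCT3 with -0.26 (SE 0.18), none past the threshold. In none of these 3, named for their small p among the 8, did the breeds overlap: PFDN4 was higher and VBP1 and CCT3 were lower in every Shaziling animal. Over all tested probe sets, 7.42% had every Shaziling signal above Yorkshire and 8.89% had every one below. Of 6 listed genes of heat shock transcription only 1 was on the array under a name, and 0 were tested. HSF1 was Present on no array, and listed genes without a named probe set were not read here.

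Chaperones of the mitochondrion, listed for contrast, had 2 of 4 genes positive and a median of 0.04. TRAP1, the mitochondrial HSP90, had -0.61 (SE 0.23, limma adjusted p = 0.393), with every Shaziling animal below every Yorkshire one. HSPA9, the mitochondrial HSP70, had 0.14 (SE 0.12) for its brightest probe set, with every Shaziling animal above. Its other probe sets had 0.01, with the breeds overlapping, and -0.60, with every Shaziling animal below. HSPD1, HSP60, had 0.12 (SE 0.14). Of 8 tested immediate early and acute stress genes 3 were positive, with a median of -0.31 and 0 past the threshold. DDIT3, a factor of endoplasmic reticulum stress, had -0.81 (SE 0.26, limma adjusted p = 0.319) with Shaziling below throughout, JUN -1.06 (SE 0.52) and MYC -0.42 (SE 0.42). FOS, named after its values were seen, swung between animals and not between breeds, at 11.61, 6.65 and 11.98 in Yorkshire and 7.51, 11.29 and 10.81 in Shaziling. FOS was low in Yorkshire replicate 2, where the small heat shock genes were lowest, and also in Shaziling replicate 4, where all 4 small heat shock genes were above their means. Its part in the pattern of the heat shock genes was not tested.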

How the data were processed

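Per the submitters' processing notes the signals are MAS5 output, with no version stated. The authors deposited log2 signals, lowest value 0.0, whose 2% trimmed mean on the linear scale was 500.1 to 500.2 on each array, and detection calls (Present, Marginal, Absent). Both deposited tables held the same signals (0 values differed). At most 0.112% of probe sets were identical between a pair of arrays.

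Symbols were updated through Entrez IDs and a RefSeq gene table of Sscrofa11.1, used for names only, and 8829 of 23999 probe sets had 1 gene. Positions are the file's, whose assembly is not readable there. limma 3.58.1 under R 4.3.3 (lmFit, eBayes with trend) compared Shaziling with Yorkshire over 14413 probe sets, with Benjamini-Hochberg adjustment and a threshold of 0.05. The procedure was tested on simulated data. The number of arrays, 3 per breed, limits the precision. Alternatives changed the normalization, the filter on calls, an offset, the variance model, array weights, a covariate, the probe set rule and the animals used.

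Members and lists were chosen with earlier results of these data known. All members are named, and of each other list the genes past the threshold or else the 3 of smallest p. Genes most like a member are named for the 2 members of widest range, 3 each.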

Additional observations from a re-analysis of the deposited data

How the results depend on the processing

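Results were recomputed under 16 alternatives, or 14 or 15 for probe sets that were not the brightest of their gene, since gene averages and the stricter filter do not apply to all. No paired analysis was possible because the breeds share no replicate numbers. The count of all probe sets past the threshold, 31, became 19 with Present calls required on all arrays, 13 with no filter on calls, 8 in eBayes without trend and 364 under array weights. It lay from 0 to 27 when 1 animal was left out: 0 without Yorkshire replicate 1 or Shaziling replicate 6 (1020 and 1096 at an unadjusted p under 0.05), 5 without Shaziling replicate 5 and 11 without Yorkshire replicate 2. Of the heat shock probe sets 3 passed under array weights, from HSPH1 and DNAJA1, and from 0 to 1 when 1 animal was left out. The HSP90 median, 0.02, was -0.15 when a gene's probe sets were averaged. Leaving out 1 animal, it lay from -0.04 to 0.11, that of the HSP70 system from 0.46 to 0.73 and that of the small heat shock proteins from 0.38, without Yorkshire replicate 2, to 1.19. The 32 other chaperone genes had 0 calls throughout. Of 248 recomputed member values 18 changed sign, none past the threshold. The sign of HSPH1, DNAJA1, DNAJB1, HSPB1, HSPB8 and CRYAB held in all, as did that of the third HSP90AA1 probe set (-0.41 to -0.05 leaving out 1 animal) and the dim HSP90AB1 one (-0.76 to -0.16). Under array weights HSPA8 was 0.11, HSP90AB1 0.083 and the second HSP90AA1 probe set 0.088. With each array's Present percentage as a covariate the brightest HSP90AA1 probe set was -0.0082 and the HSPB6 ones 0.43 and 0.38, and HSP90AA1 averaged over its probe sets was -0.065. Leaving out 1 animal, HSPA8 lay from -0.092 to 0.066, HSP90AB1 from -0.18 to 0.11, the second HSP90AA1 probe set from -0.19 to 0.20, and the HSPB6 ones from -0.54 to 0.16 and from -0.54 to 0.12. The cause was not tested. The dim HSPB6 and HSP90AB1 probe sets, Present on 3 arrays each, have signals close to background.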
